A study of Caenorhabditis elegans with 4 samples.

Results

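The regions described here are the sites on the autosomes of the nematode Caenorhabditis elegans at which a chromatin immunoprecipitation sequencing (ChIP-seq) peak of the transcription factor UNC-30 overlapped a peak of the transcription factor UNC-55 by at least 1 bp. They number 1194 of the 2166 autosomal UNC-30 peaks (55.1%) and of the 2875 UNC-30 peaks in all, and each is counted as the UNC-30 peak with its UNC-55 partner attached. The partners are 1207 of the 1938 autosomal UNC-55 peaks. The sites were chosen by the measured overlap of the called peaks, so their number, widths and overlaps are given as a description. The study holds 4 samples from whole L2 larvae: 1 ChIP and 1 input sample for each factor. All carry the strain name GSH100, the ChIP samples were pulled down with beads against GFP, and the labels name neither the tagged construct nor the cells that make it. The worms were grown at 22 or 25 °C on plates with OP50 bacteria, and which temperature applied to which sample is not given. With 1 library per factor there is no replicate check and no p-value. The lists give positions only, so peak height, read depth and input signal behind a site are unknown.

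UNC-30 is a homeodomain protein of the Pitx family that switches on the genes for making and packaging GABA in the DD and VD motor neurons of the ventral cord. UNC-55 is a nuclear receptor related to the vertebrate COUP-TF proteins, present in the VD but not in the DD neurons, where it keeps VD neurons from rewiring their synapses as the DD neurons do. In whole larvae, these neurons are a small part of the animal, and peaks from any cell that holds the tagged protein enter the list.

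Genes could be named next to the sites only after the positions had been matched to the gene table of assembly WBcel235, since no build is named for the lists. Peak centres gathered just outside the ends of protein-coding genes on both sides, and the point about which both profiles mirrored each other gave the offset between lists and table. It was -90 bp over all autosomes, ran from -50 bp on I to -120 bp on II and III, and lay at -60, -90 and -100 bp in the left, central and right parts of the chromosomes. The positions thus lay within little more than 100 bp of WBcel235 on each autosome taken as a whole. The left, central and right parts were measured over all autosomes together, so a shift in a part of a single chromosome was not looked for. Moving all sites by the offset left 1421 of 1434 genes (99.1%) in the set named below. Genes are therefore given as neighbours at the scale of kilobases, and whether a site less than about 100 bp from a gene end lies inside or outside that gene is uncertain. The table has no strand, so a gene's start could not be told from its end, and a site between a pair of genes was assigned to both. Being next to a gene does not show that the site acts on it. Positions below follow the peak lists, with the first base of a chromosome as 1.

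**Figure D1:**
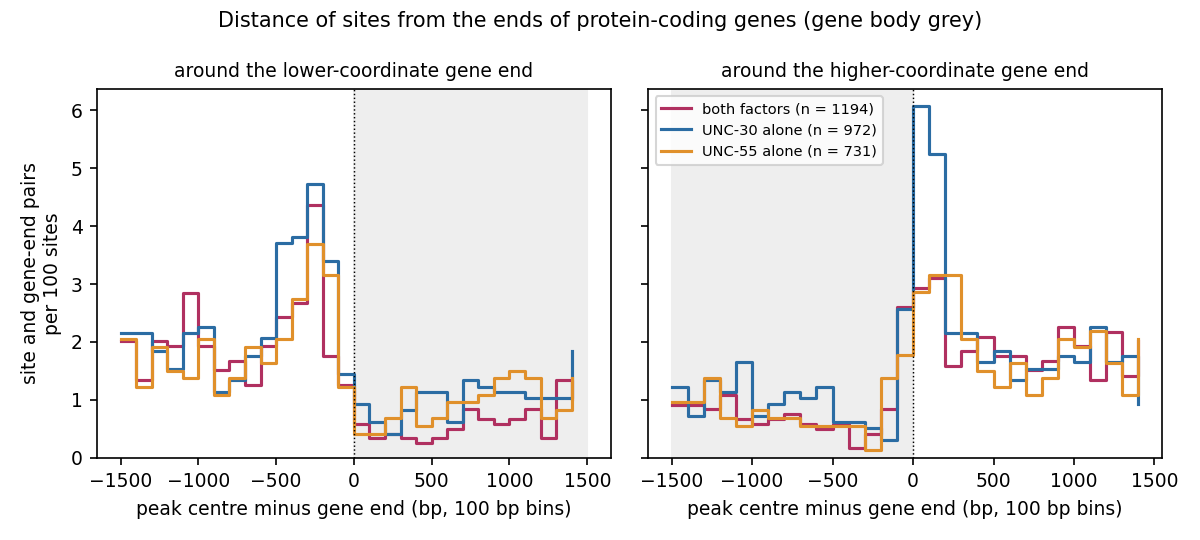
Number of pairs of a site centre and a protein-coding gene end per 100 sites (vertical axis), against the centre minus the gene end in bp (horizontal axis, 100 bp bins), at the lower and the higher end of genes, for sites of both factors and for peaks of UNC-30 or UNC-55 alone on the autosomes. All 3 classes rise just outside the gene and fall inside it (grey), and the rise is shifted to lower coordinates by about 90 bp in both panels.

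The list of GABA genes, which also holds unc-30 itself, had shared sites in or beside 5 of 8 members, and 4 of 7 without unc-30, where 8.32% of all 17241 autosomal protein-coding genes did so. At unc-25, which encodes the GABA-making enzyme glutamic acid decarboxylase, a UNC-30 peak of 700 bp (III 12942001 to 12942700) held a UNC-55 peak of 350 bp. The site centre lay 0.300 kb from unc-25, in the 362 bp between it and epg-3, and only 62.5 bp from the end of epg-3. At unc-47, the vesicular GABA transporter, a UNC-30 peak of 650 bp (III 10185851 to 10186500) held a UNC-55 peak of 400 bp at the gene's end, and a further pair of 300 bp each followed 1.64 kb outside the gene. At unc-46, needed to bring that transporter to synaptic vesicles, peaks of 400 and 250 bp met at V 5098751 to 5099150. These 3 genes are known targets of UNC-30. The UNC-55 peak at each of these sites is part of how the sites were chosen. The GABA receptor gene unc-49, whose product acts in muscle, had a site of 650 bp inside the gene. The genes for GABA uptake (snf-11), GABA breakdown (gta-1) and an excitatory GABA receptor (exp-1) had no shared site. Without unc-30, peaks of UNC-30 alone were held or flanked by 3 of these 7 genes (unc-25, unc-49 and gta-1), against 7.29% of all autosomal genes. Peaks of UNC-55 alone were held or flanked by none of the 7, against 5.53% of all, so with so few genes this count says little.

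Both factor genes themselves held or flanked shared sites. At unc-30, the largest site of this list, with a UNC-30 peak of 950 bp and a UNC-55 peak of 600 bp (IV 13118451 to 13119400), lay at a gene end, and a smaller one of 350 and 200 bp lay 3.57 kb beyond the other end. At unc-55, peaks of 550 and 400 bp met inside the gene (I 7899551 to 7900100), and peaks of 450 and 550 bp met 1.69 kb outside it. The construct that tags each factor is not given, so whether a tagged copy of these genes added reads was not tested.

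Genes listed for the identity and rewiring of the D-type motor neurons held or flanked shared sites in 8 of 15 autosomal cases. Of all autosomal genes, 8.32% did so. A site within 1000 bp of an end was found at 5 of the 15, against 3.33% of all autosomal genes. These 8 include unc-55 and 3 genes counted in another list as well: unc-30 (GABA), pde-4 (cyclic AMP, below) and flp-13 (FMRFamide-like peptides). At oig-1, an immunoglobulin-domain protein that keeps synapses in place in these neurons, peaks of 650 and 250 bp met 0.869 kb outside the gene. At flp-13, a neuropeptide gene of the DD neurons, a UNC-30 peak of 350 bp (IV 7698301 to 7698650) lay wholly within a UNC-55 peak of 2750 bp, the widest partner of all, so this pair rests on a UNC-55 region unlike the others. The synapse organiser madd-4 had 4 shared sites, 3 of them inside the gene, with UNC-30 peaks of 350 to 700 bp. The acetylcholine receptor subunit gene acr-14 had 1 site, and myrf-1, a membrane-bound transcription factor required for DD rewiring, had 2. None was found next to irx-1, unc-8, ttr-39, flp-10, unc-4, ceh-12 or tab-1. Membership of this list does not mean that a gene is particular to D-type neurons. Another 7 genes of the list lie on X and were not analysed here.

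Cyclic AMP signalling genes held or flanked shared sites in 10 of 16 autosomal cases, against 8.32% of all autosomal genes. The longest shared stretch was at pde-4, a phosphodiesterase that breaks down cyclic AMP, where a UNC-30 peak of 800 bp (II 7641651 to 7642450) lay within a UNC-55 peak of 1150 bp, deep inside the gene. The enzymes that make cyclic AMP were represented by acy-1, acy-3 and acy-4, with UNC-30 peaks of 250 to 550 bp. The stimulatory G protein gene gsa-1 had 2 sites, of 850 and 650 bp, and the Go protein alpha subunit gene goa-1 had 2, of 450 and 850 bp, in the stretch beside it. kin-1, the catalytic subunit of protein kinase A, held 5 sites of 400 to 600 bp inside its 38.4 kb. The phosphodiesterases pde-2 and pde-6 and the exchange factor pxf-1 were also among the 10. acy-2, pde-1, pde-3, pde-5, crh-1 and crtc-1 had none. A site within 1000 bp of a gene end was found at 3 of the 16 (acy-1, gsa-1 and pde-6), or 18.8%, against 3.33% of all autosomal genes. At the other 7, the sites lay deeper in the gene or farther out.

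The list with the highest share was that of synaptic transmission. In it, 17 of 19 autosomal genes held or flanked a shared site, against 8.32% of all autosomal genes. These 17 cover vesicle fusion (unc-64 syntaxin, snb-1 synaptobrevin, ric-4 SNAP-25, snt-1 synaptotagmin, cpx-1 complexin, tom-1 tomosyn), priming and dense-core release (unc-13, unc-31), vesicle recycling (unc-11, unc-26 synaptojanin, unc-57 endophilin), transport to the synapse (unc-104, unc-116, unc-16) and rab-3, syd-1 and the calcium channel subunit unc-36. Only rpm-1 and ric-8 had none. snt-1 had 6 sites, with UNC-30 peaks of 250 to 550 bp, and 4 of these lay in the 18574 bp between snt-1 and egl-27. unc-64 had 4 sites in a row, of 600, 500, 550 and 650 bp, at 6.36, 4.51, 3.78 and 1.48 kb from the gene. Their UNC-55 partners measured 250, 250, 100 and 300 bp. All lay in the 8375 bp between cpf-2 and unc-64, and those of 600 and 500 bp were nearer to cpf-2. snb-1 had 2 sites, of 650 and 450 bp, at 2.47 and 3.17 kb. Both lay between snb-1 and pmp-5, and the one of 450 bp was nearer to pmp-5. Of the 28 sites of this list, 25 lay between genes and 3 inside them. A site within 1000 bp of an end was found at 5 of the 19 genes, against 3.33% of all autosomal genes.

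The list of broadly neuronal genes gave 11 of 13, against the same 8.32% of all autosomal genes. It also holds ida-1 and unc-86, which are made in some neuron classes only, and without them it gave 10 of 11. In it, 3 genes (rab-3, snb-1 and unc-64) are also in the synaptic list. rgef-1 and unc-119, whose promoters are in common use as pan-neuronal drivers, had sites of 400 and 400 bp and of 500 bp. The neuropeptide-processing enzymes egl-3 and egl-21 had UNC-30 peaks of 550 and 450 bp, with partners of 550 and 350 bp. ida-1, unc-33, unc-44 and unc-51 completed the set, and ric-19 and unc-86 had none.

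Lists for other tissues were short and differed among themselves. None of 6 autosomal body wall muscle genes (myo-3, unc-54, unc-15, unc-22, unc-89 and lev-11) held or flanked one, which with 6 genes leaves an interval of up to 45.9%. The same muscle genes held or flanked peaks of UNC-30 alone in 2 of 6 cases and peaks of UNC-55 alone in 2 of 6. Of 7 gut genes, 2 were beside a shared site (elt-7 and spl-1, interval 3.67 to 71.0%), and of 8 hypodermis genes, 1 was (elt-1, interval 0.316 to 52.7%). The body wall muscle, gut and hypodermis intervals all include 8.32%, and no difference between lists was tested. Nuclear hormone receptor genes, the family of UNC-55 itself, were below the share of all genes, with 7 of 246 (2.85%, 95% exact binomial interval 1.15 to 5.77%). This was not particular to shared sites. Peaks of UNC-30 alone were held or flanked by 12 of these 246 genes, where 7.29% of all genes did so. Peaks of UNC-55 alone gave 5 of 246, against 5.53% of all genes. Homeobox genes named ceh gave 6 of 46, neuropeptide-like proteins 8 of 56, FMRFamide-like peptides 2 of 18, insulin-like peptides 2 of 36 and histones 4 of 68, and all of these intervals include 8.32%. Without peaks narrower than 300 bp, the neuropeptide-like count was 1 of 56 and that of the nuclear hormone receptors 4 of 246. Of all autosomal genes, 4.01% were then next to a shared site.

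Long genes were more often beside a shared site. The synaptic, cAMP and pan-neuronal lists had median lengths of 7.38, 8.33 and 6.09 kb and body wall muscle one of 8.75 kb, while the GABA and D-type lists had medians of 3.66 and 2.63 kb. Of all autosomal genes under 2 kb, 4.83% held or flanked a shared site, of those of 2 to 5 kb 8.19%, of 5 to 10 kb 16.7%, and of 10 kb or more 28.6%. Within those last 2 classes, synaptic genes gave 7 of 8 and 6 of 7, pan-neuronal genes 6 of 6 and 2 of 2, and cAMP genes 5 of 8 and 4 of 6. Body wall muscle genes of the same classes gave 0 of 4 and 0 of 2, though these are few genes. These classes match the length of the gene only. A gene beside a long stretch between genes has more room to flank a site, and 25 of the 28 synaptic sites lay between genes. The lists were not matched for the length of those stretches. The lists were chosen with knowledge of the field and of earlier results on these peaks, the genes in them share sites, and no test across genes was made.

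Peaks of a single factor were also found beside genes of these lists. Peaks of UNC-30 alone were held or flanked by 5 of the 19 synaptic genes, 6 of the 13 pan-neuronal genes and 8 of the 16 cAMP genes, where 7.29% of all autosomal genes did so. Peaks of UNC-55 alone gave 8, 2 and 6 of the same lists, against 5.53% of all genes. Of the 1434 genes next to a shared site, 414 (28.9%) were also next to a peak of UNC-30 alone and 290 (20.2%) next to one of UNC-55 alone.

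Ribosomal protein genes formed a different group of sites. They held or flanked a shared site in 17 of 76 cases (22.4%, interval 13.6 to 33.4%), although all 76 are shorter than 2 kb, a class in which 4.83% of genes did so. Their 20 sites were narrow, with a median UNC-30 width of 250 bp, while the 28 sites of the synaptic genes had a median of 500 bp and the 7 of the GABA genes one of 650 bp. Ribosomal protein genes were beside peaks of UNC-30 alone about as often, in 15 of 76 cases, and beside peaks of UNC-55 alone in 2. When peaks under 300 bp were dropped from each list, 506 shared sites were counted and 4.01% of all genes were next to one. The ribosomal count was then 3 of 76, while the synaptic count was 11 of 19, the pan-neuronal 9 of 13 and the GABA count 3 of 8.

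**Figure D2:**
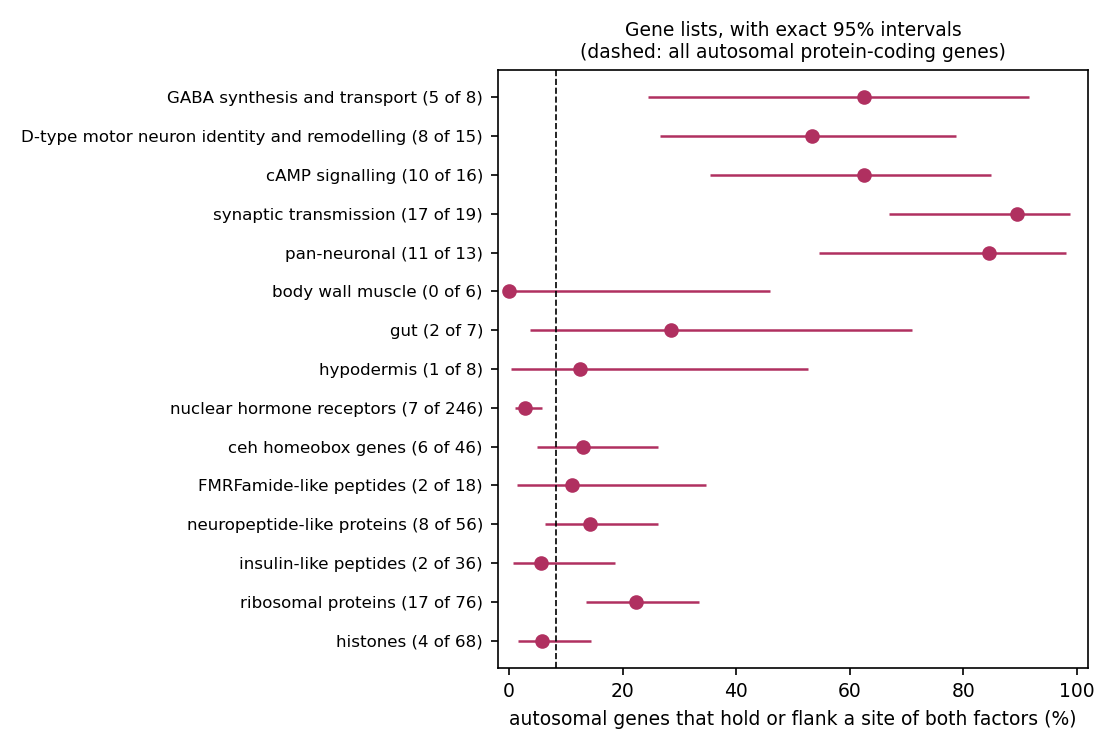
Share of the autosomal genes of each list that held or flanked a site of both factors (points, horizontal axis in %), with exact 95% binomial intervals (lines) that cover counting error only; the dashed line is the 8.32% of all autosomal protein-coding genes. The synaptic list stands at 17 of 19 and the pan-neuronal list at 11 of 13. Body wall muscle has 0 of 6, with an interval that includes the dashed line, and nuclear hormone receptors lie below that line.

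The 2 longest shared stretches on each autosome lay at genes of varied kinds, with ties given to the lower coordinate. On chromosome I, the peak at 9380951 to 9382000 held 850 bp of UNC-55 peak inside ppfr-1, a regulatory subunit of a protein phosphatase, and one at 1836451 to 1837250 shared 800 bp inside egl-30, the Gq protein alpha subunit, as did one at 5315851 to 5316800 inside let-526. On II, the pde-4 site was the longest, followed by one at 11749201 to 11750100 with 750 bp shared, in the stretch between the G protein beta subunit gene gpb-1 and F44E5.4. On IV, a UNC-30 peak of 1350 bp at 14032551 to 14033900 met a pair of UNC-55 peaks, with 1000 bp shared, between irld-55 and Y37A1B.7, and a peak of 1100 bp at 10341601 to 10342700 held 900 bp inside unc-43, the calcium/calmodulin-dependent kinase II. On V, a peak of 1150 bp at 4507101 to 4508250 shared 800 bp with a pair of UNC-55 peaks inside the homeobox gene unc-62, and one at 11340951 to 11341950 shared 750 bp between T02E9.6 and T02E9.5, as did one at 15070851 to 15071700 between dnj-3 and unc-76. On III, the longest was 750 bp at 8416951 to 8417900, between ZK353.9 and sor-1. Next came 700 bp at 4281601 to 4282500, between sup-26 and R10E4.3, and an equal length at 8799801 to 8800600 inside zfp-1.

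Most shared sites lay between protein-coding genes. The site centre was outside every gene in 737 of 1194 cases (61.7%, interval 58.9 to 64.5%), while 36.5% of autosomal bases are outside genes. Of these, 407 (55.2%) lay in stretches of 5 kb or more between genes, which make up 11% of the stretches but 51% of the bases outside genes, so the share of sites in long stretches was close to the share of bases there. The median stretch around a shared site was 5533 bp long. The median distance from a site centre to the nearest gene end was 1458 bp, and 451 sites (37.8%) were within 1000 bp of one, less than the 51.9% of autosomal bases that are that close. The rise at gene ends and the many sites in long stretches are thus both present in the set.

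Compared with autosomal peaks of UNC-30 alone, shared sites lay outside genes slightly more often and near gene ends slightly less often. The share outside genes was 61.7% against 57.4% of 972 peaks, a difference of 4.32 percentage points (95% interval 0.167 to 8.46). The share within 1000 bp of a gene end was 37.8% against 42.9%, a difference of -5.13 points (interval -9.27 to -0.978). Against the 731 peaks of UNC-55 alone, the corresponding differences were 4.54 points (interval 0.0356 to 9.06) and -1.76 points (interval -6.26 to 2.70). Neighbouring peaks are not independent, which these intervals ignore, and several of their bounds lie near 0. Shared sites had a median UNC-30 width of 400 bp, while autosomal peaks with no partner had a median of 200 bp in either list. The classes were not matched for width, here or in the other comparisons between them. What width adds to these differences was not tested.

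Few shared sites lay at tRNA genes, as few autosomal bases do, while peaks of UNC-30 alone lay there more often. Of all autosomal bases, 0.232% have a tRNA gene midpoint 300 bp away or closer. A tRNA gene had its midpoint within 300 bp of 1 of 1194 shared sites (0.0838%, interval 0.00212 to 0.466%), of 28 of 972 peaks of UNC-30 alone (2.88%, interval 1.92 to 4.14%) and of 4 of 731 peaks of UNC-55 alone (0.547%, interval 0.149 to 1.40%). The interval of the shared sites includes the share of bases. Their difference from UNC-30 alone was -2.80 points (interval -4.05 to -1.83), and that from UNC-55 alone -0.463 points (interval -1.32 to 0.0495). Small nucleolar RNA genes were near similar shares of shared sites and of UNC-30 alone, at 11 shared sites (0.921%) and 11 peaks of UNC-30 alone (1.13%). They were near 2 peaks of UNC-55 alone (0.274%), where 0.221% of bases are that close. MicroRNA genes were near 6 shared sites (0.503%, interval 0.185 to 1.09%), where 0.126% of bases are that close. These were mir-57, mir-87, mir-90, mir-1824, mir-8192 and mir-8209. They were near 5 peaks of UNC-30 alone (0.514%) and near none of UNC-55 alone, where a count of 0 leaves an interval of up to 0.503%. All of these shares are small against the number of sites.

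The peaks of a pair were centred on one another. Of the shared sites, 1179 had 1 UNC-55 partner and 15 had 2, and 1175 pairs were exclusive on both sides. In these, the centres were within 50 bp, 1 step of the grid on which both lists were made, in 893 pairs (76.0%), within 100 bp in 1099 (93.5%) and within 200 bp in 1165 (99.1%). In 463 pairs the centre of UNC-55 was to the right of that of UNC-30, in 469 to the left, and in 243 both coincided. The middle 50% of UNC-30 widths ran from 250 to 500 bp around a median of 400 bp, and that of the partners from 200 to 350 bp around 250 bp. The UNC-55 peak lay within a longer UNC-30 peak in 780 pairs, the reverse held in 142, the boundaries were identical in 56, and 197 were staggered. The overlap rule limits how far apart the centres can be, so this is a description.

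**Figure D3:**
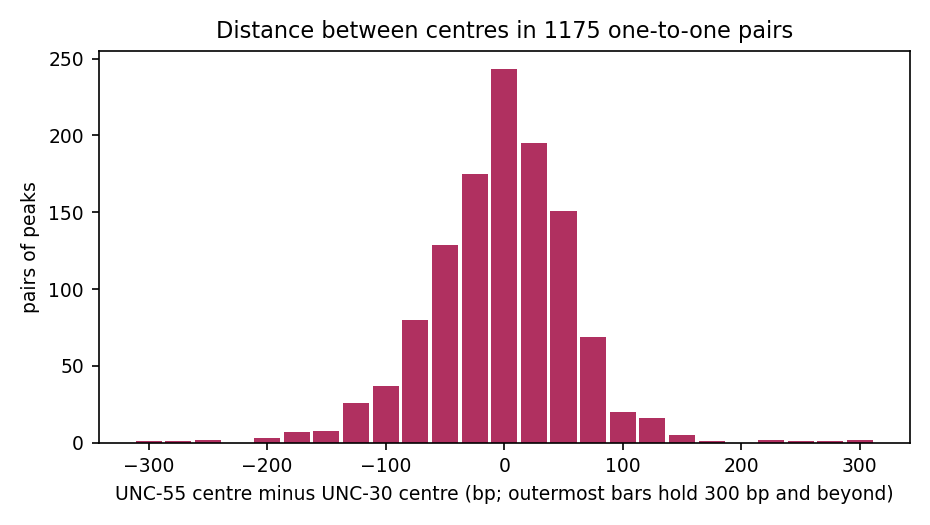
Number of exclusive pairs (vertical axis) by the UNC-55 centre minus the UNC-30 centre in bp (horizontal axis, 25 bp steps), for 1175 autosomal pairs; distances beyond 300 bp are placed in the outermost bars. The distribution is centred on 0, where 243 pairs fall.

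Wider UNC-30 peaks had wider partners, but the partner grew less. The median UNC-55 width was 200 bp beside UNC-30 peaks of 100 to 150 bp (108 pairs) and of 200 to 250 bp (192 pairs), 250 bp beside those of 300 to 400 bp (381 pairs), 325 bp beside those of 450 to 600 bp (374 pairs) and 450 bp beside those of 650 bp or more (120 pairs). The UNC-30 peaks of 100 to 150 bp were thus narrower than their partners by median. Across the pairs the rank correlation of the widths was 0.50, over positions on a shared grid. Shared sites on X had the same median UNC-30 width, 400 bp (395 sites). The median UNC-30 width was 400 bp and the median overlap 250 bp in the central and in the outer parts, and also inside and outside genes.

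Shared sites were concentrated in the middle of the autosomes. The central part, of 3 equal parts per chromosome, held 527 sites (44.1%, interval 41.3 to 47%), the left 343 and the right 324. Protein-coding genes were also denser there, with 38.0% in the central part, and per 1000 genes the central part had 80.4 shared sites and the outer parts 62.4. With each chromosome cut into 10 equal parts, parts 5 to 7 held 14.2, 13.5 and 14.7% of the sites, and parts 2 and 9 held 6.70 and 5.19%. The central share was 49.5% on II, 49.6% on V and 45.7% on I, but 37.3% on III (interval 31.2 to 43.8%) and 39.1% on IV (interval 32.9 to 45.5%), where genes alone gave 40.3 and 40.1%. On III and IV the central excess over genes was therefore not seen. On X, 33.4% of 395 shared sites were central (interval 28.8 to 38.3%).

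The central share was 5.15 points above that of UNC-30 alone (39%, interval of the difference 0.970 to 9.28) and differed by -1.14 points from that of UNC-55 alone (45.3%, interval of the difference -5.72 to 3.42). The difference from UNC-30 alone was largest on chromosome I, where 118 of 258 shared sites and 58 of 197 peaks of UNC-30 alone were central, a difference of 16.3 points (interval 7.31 to 24.8). It was 7.52 points on II, 4.72 on V, -1.19 on III and -1.14 on IV, each with an interval that includes 0. Without chromosome I, the pooled difference was 2.28 points (interval -2.43 to 6.96). On that chromosome, 67.0% of the UNC-30 peaks in the central part were shared, against 52.3% in its left and 48.3% in its right part.

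**Figure D4:**
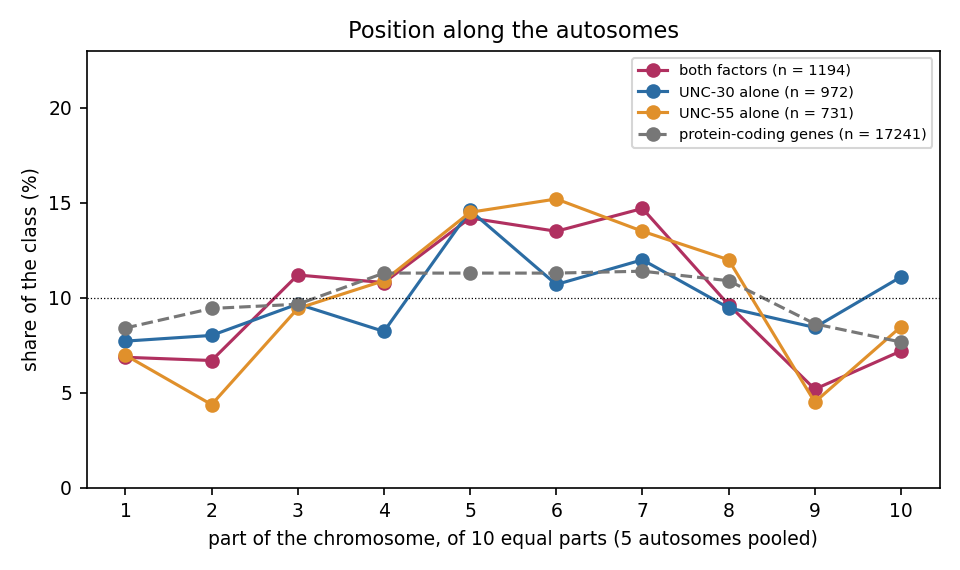
Share of each class in % (vertical axis) in each of 10 equal parts of the chromosome (horizontal axis), pooled over the 5 autosomes, for sites of both factors, peaks of UNC-30 alone, peaks of UNC-55 alone and protein-coding genes (dashed); the dotted line is an even spread. Shared sites reach 14.7% in part 7 and fall to 5.19% in part 9, a wider swing than that of the genes.

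By density, III had 17.5 and I 17.2 shared sites per Mb, II 14.5, IV 13.9 and V 11. Per 1000 protein-coding genes the order was the same at its ends, with 91.2 on III, 89.7 on I, 74.1 on IV, 64.4 on II and 46 on V. Chromosome V was thus the sparsest by either measure, and II and IV changed places.

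Shared sites often lay near one another. The median distance to the next shared site was 8700 bp (quartiles 2100 and 31825 bp), and 283 sites (23.7%, interval 21.3 to 26.2%) had another less than 2000 bp away. For peaks of a single factor this share was 17.4% (UNC-30) and 11.6% (UNC-55), differences of 6.32 points (interval 2.89 to 9.68) and 12.1 points (interval 8.64 to 15.4). The shared class is also the most numerous, and what number alone adds was not tested. The share was 31.5% on III and 17.7% on IV. Less than 2000 bp away, 228 shared sites (19.1%) had a peak of UNC-30 alone and 125 (10.5%) one of UNC-55 alone. At the other end, 180 sites (15.1%) had no autosomal peak of any kind within 20 kb.

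**Figure D5:**
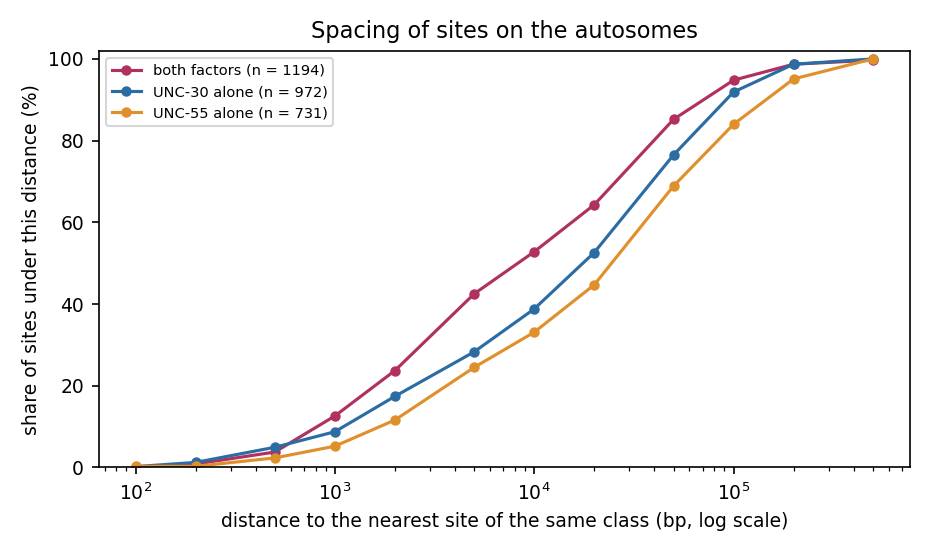
Share of sites in % (vertical axis) whose nearest site of the same class is closer than the distance on the horizontal axis (bp, log scale), for sites of both factors and peaks of UNC-30 or UNC-55 alone on the autosomes. From 1000 bp to 100000 bp the curve of shared sites lies above the others, at 23.7% for 2000 bp.

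Joining shared sites less than 2000 bp apart gave 1038 groups, of which 911 were single sites, 107 pairs, 13 triplets, 5 groups of 4 and 2 of 5. Both groups of 5 were on III, at 3618551 to 3622950 inside sel-8, a Notch pathway coactivator, and at 6133201 to 6140150 at mvk-1 and between it and wht-7. Groups of 4 included 7708251 to 7712900 on I inside lsy-22, 12659851 to 12665250 on II at rgs-4, a regulator of G protein signalling, and 4575701 to 4581400 on IV at F28E10.1. Groups of 3 were tied on I (2 groups), IV and V (3 groups each), and those named are the ones at the lowest coordinates. On I, 3 sites at 8934901 to 8939050 lay inside madd-4, and on II, 3 at 11746551 to 11751950 lay at gpb-1. On IV, 3 sites lay at 2995851 to 2999100 next to Y54G2A.26, and on V 2 groups of 3 lay at 6877851 to 6881350 by frpr-18 and unc-70 (beta-spectrin) and at 12896001 to 12899150 by ttbk-7 and ttr-27. The groups on I, III and V held no peak of a single factor, and on II and IV at most 1.

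The longest stretch without a shared site on each autosome lay outside the central part. It was 1129.5 kb long on V (16821751 to 17951300), where 259 genes, 5 UNC-30 peaks and 5 UNC-55 peaks without a partner lay within it. On IV it was 722 kb (16492751 to 17215100), on II 695 kb (1502351 to 2197350), on III 688 kb (11870051 to 12557900) and on I 630.5 kb (2996501 to 3627000). These held 6, 5, 9 and 5 UNC-30 peaks with no partner, and 2, 1, 2 and 2 such UNC-55 peaks, so peaks were called there, though few.

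At the edge of the rule, 37 shared sites overlapped their partner by 50 bp, the smallest step, and 139 by 100 bp. Examples are I 1651301 to 1651400, inside mab-20, and I 2292851 to 2292950, beside cdk-7. Just outside it, 7 autosomal UNC-30 peaks touched a UNC-55 peak without sharing a base, among them I 10756451 to 10756650 and IV 5836201 to 5836700, and 64 lay less than 500 bp from one. The sites at the edge are few beside the 1194.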

How the data were processed

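The peak lists of both factors were used, 1 per factor; no input values were analysed here. Per the file headers, the authors deposited chromosome, start and end of each peak and no other value; the sources used here name no aligner, peak caller, threshold, use of the input or genome build. Deposited starts are multiples of 50 bp and ends fall 1 short of such multiples, so both were taken as counted from 0 with the end base included, and converted to count from 1. Chromosome length was the last peak end in either list. Sites were placed by the centre of the UNC-30 peak. Protein-coding genes were taken from the RefSeq table of WBcel235, which has no strand, so the planned distance to gene starts was replaced by the distance to either gene end (1000 bp), and counts of genes that hold or flank a site were added after the data were seen. The shares outside genes and near small RNA genes were not planned either. Planned motif shares were not run, since no sequence was used here. The offset from the gene table was the mirror point of smoothed centre profiles (kernel of 75 bp, within 1000 bp of gene ends). Shares carry exact Clopper-Pearson 95% intervals and differences Newcombe intervals, for counting error only. Regions named are the 2 longest overlaps and 2 largest groups per autosome (ties by position), the longest gaps, sites with most partners and those at the edge of the rule; genes named are those of the lists and the neighbours of these regions. The members and lists were chosen with earlier results of these data known. Counting and offset were tested on simulated data. Python 3.11.15, numpy 2.4.6, pandas 2.3.3, scipy 1.17.1 and statsmodels 0.14.6 were used.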

Additional observations from a re-analysis of the deposited data

How the results depend on the processing

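Of the autosomal UNC-30 peaks, 55.1% were shared. This was between 54.4 and 56.5% when 50% of one peak had to be covered, when centres had to be 200 bp apart or closer, or when peaks under 500 bp apart were joined. Without peaks narrower than 300 bp in either list it was 41.2% (506 of 1228). Partners had a median width of 250 bp, and a wide UNC-30 peak whose partner was dropped then counted as not shared. The 41.2% is thus not the share of wide UNC-30 peaks that met a partner of any width. The central share of 44.1% lay between 42.8 and 45.9% under the other overlap rules, with wide peaks only and without each autosome in turn, and the middle 50% of the chromosome held 65.9%. Another shared site lay under 1000 bp away for 12.6%, under 5000 bp for 42.5%, and under 2000 bp for 15.6% with wide peaks only. A gene end lay within 500 bp of 24.3% and within 2000 bp of 58.5% of sites, and within 1000 bp of 33.8% with wide peaks only. Over all lists, 45 of 630 autosomal genes had a site within 1000 bp of an end, against 3.33% of all autosomal genes. Of the same 630, 94 held or flanked one (93 with positions moved by the offset), against 8.32% of all. Genes that hold or flank a site were counted after the data were seen, as were moved positions for these counts. Under the main rule, exclusive pairs held 381 UNC-30 peaks of 300 to 400 bp, 374 of 450 to 600 bp and 120 of 650 bp or more. Together these are more than 55.1% of the 1228 wide UNC-30 peaks. The lower 41.2% counts only partners of 300 bp or more. The cause of the other changes without narrow peaks was not tested. Changes with another distance or window follow from its construction. No paired analysis was possible because there is a single library of each factor, and no replicate could be left out. Motif shares at promoters, and their alternative, were not run for lack of sequence. Without depth or input values, a peak missing from a list cannot be read as absent binding.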

Other observations

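The genes beside most shared sites were named after their counts were seen. Of the 1434 genes that held or flanked a shared site, 1065 had 1, 279 had 2, 57 had 3, 19 had 4, 10 had 5 and 4 had 6. Those with 6 were F28E10.1, snt-1, egl-27, which encodes a chromatin-associated protein, and lin-39, a Hox gene of the midbody. The Hox gene ceh-13 lies next to lin-39, and 4 shared sites lay in the 19027 bp between them, with UNC-30 peaks of 600, 300, 550 and 500 bp and UNC-55 peaks of 400, 300, 400 and 300 bp. Those with 5 included kin-1, the cell adhesion gene sax-7, the neurexin-like gene nlr-1, the kinase gene mbk-2 and jip-1. Among these genes lengths ran from 5.47 kb at snt-1 to 38.4 kb at kin-1, and the part of length in the counts was not tested.

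Sites of both factors with a pair of UNC-55 partners were also looked at singly. On IV, a UNC-30 peak of 1350 bp at 16491401 to 16492750, between rho-1 and zip-7, met UNC-55 peaks of 500 bp and at 16492301 to 16492500, and it borders the longest stretch of IV without a shared site. On III, one of 1200 bp at 6138301 to 6139500, between mvk-1 and wht-7, met UNC-55 peaks at 6138451 to 6138650 and 6139051 to 6139350.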
